A study of Mus musculus with 22 samples.

Results

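The neurotrophins Bdnf and Ntf3, the receptors Ntrk2, Ntrk3, Ngfr, Sort1 and Sorcs2 and the convertase Furin were followed in hippocampal RNA of TgproNGF#3 and wild-type (WT) mice. They are 8 of 21154 genes named on the array, chosen because they bind, carry or cleave neurotrophins and their precursors. Every non-control probe assigned to a RefSeq transcript of these genes was taken, whatever its signal, which gave 16 of 55681 probes and 34 of 59305 spots. Ntrk3 had 4 probes, Ntrk2 and Sort1 had 3 each, Sorcs2 had 2, and the other genes had 1 each.

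TgproNGF#3 mice carry a pre-proNGF cDNA, mutated so that furin cannot cleave the precursor, followed by an IRES and EGFP under the neuronal Thy1.2 promoter. All mice, transgenic and WT, were of the C57Bl/6xDBA/2 background, and the transgenic mice came from 1 founder line, so that an effect of the insertion site and an effect of proNGF cannot be told apart. The hippocampus of the right hemisphere was profiled on 1-colour arrays, 1 mouse per array, in 4 TgproNGF#3 and 4 WT males of 1 month, 4 and 4 males of 3 months, and 3 and 3 females of 12 months. Each age lay on its own slide, so age, slide and, at 12 months, sex cannot be told apart. The transcript of the transgene itself is not analysed here.

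Neurotrophins are made as precursors and act through 2 kinds of receptor. Mature forms bind Trk tyrosine kinases, where TrkB (Ntrk2) is the main receptor for BDNF and TrkC (Ntrk3) for NT-3, and their signalling supports survival, growth and synaptic plasticity. Precursors bind p75NTR (Ngfr) together with a sortilin family receptor, which can drive cell death, retraction and synaptic depression. Furin, a convertase of the trans-Golgi network, removes the prodomain inside the cell, and in the hippocampus BDNF and TrkB are known above all for their part in activity-dependent plasticity.

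Values are log2 levels, that is the log2 intensity of a probe minus the 75th percentile of the spots well above background on the same array, so 0 marks the 75th percentile. A level of 1 probe cannot be compared with that of another probe. Between 57.6% and 80.3% of the spots of an array lay well above background, with the lowest share on TgproNGF#3 replicate 4 of 3 months, where the other arrays of that age had 61.9% to 64.7%. The share was 69.8% to 80.3% at 1 month and 57.6% to 67.7% at 3 and 12 months. Of the member probes 15 were measured on all 22 arrays and the dim Sorcs2 probe A_55_P2042151 on 21. In whole tissue, fewer cells of a type and less RNA per cell cannot be told apart.

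Furin RNA was lower in TgproNGF#3 than in WT hippocampus at 3 months, by 2.55-fold, and its differences at 1 and 12 months were close to 0. It was the 1 of 16 member probes called at 3 months by limma at a Benjamini-Hochberg adjusted p below 0.05, where 8.43% of the 33593 probes tested were called, 6.85% as lower. No member probe was called at 1 month or 12 months, where the share of all probes called was 0% at both ages. The ligands Bdnf and Ntf3 were called at no age.

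At 1 month the 16 differences between TgproNGF#3 and WT were small and went both ways. All WT arrays of this age lay in columns 1 and 2 of the slide and all TgproNGF#3 arrays in columns 3 and 4. Genotype and slide column therefore cannot be told apart at 1 month. Of the member probes 8 were higher and 8 lower in TgproNGF#3, where 63.8% of the 40536 probes tested were higher. Their median difference was 0.00 against 0.07 for all probes. By limma 0 member probes had an unadjusted p below 0.05 (3.47% of all probes), 0 also passed the thresholds of the study, an unadjusted p below 0.05 with a log2 fold change beyond 1 (0.57% of all probes), and for 0 the 2 genotypes did not overlap (3.32% of all probes).

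At 3 months 13 of the 16 member probes were lower in TgproNGF#3 (12 with the percentile over all spots of an array), where 62.7% of all probes tested were lower. The median difference of the members was -0.26 and that of all probes -0.12. By limma 4 member probes had an unadjusted p under 0.05 (27.2% of all probes), those of Furin, Ngfr, Sort1 A_55_P2076683 and Ntrk3 A_55_P2006808. The thresholds of the study were passed by 2, Furin and Ntrk3 A_55_P2006808 (6.76% of all probes). The genotypes did not overlap for 3, Furin, Ngfr and Sort1 A_55_P2076683 (20.3% of all probes). The counts of 4 and 3 among 16 are no larger shares than those of all probes. Of all calls at this age 81.3% were lower in TgproNGF#3, and 58.5% with the percentile over all spots, which moved the median of all probes to 0.00.

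At 12 months 12 of 16 member probes were higher in TgproNGF#3, where 51.2% of all 34064 probes tested were higher, and the median difference was 0.16 for members and 0.01 for all probes. The 3 transgenic arrays of this age shared an array row of the slide with WT replicate 3 alone, and with the row as a block the member median was 0.04 and that of all probes -0.01. Of these, 2 had an unadjusted limma p below 0.05 (9.05% of all probes), Sort1 A_52_P590396 and Sorcs2 A_51_P230287, and the same 2 were the ones whose genotypes did not overlap (15.5% of all probes). None passed the thresholds of the study (1.3% of all probes). The smallest adjusted p of any probe on the array was 0.177 at this age.

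**Figure D1:**
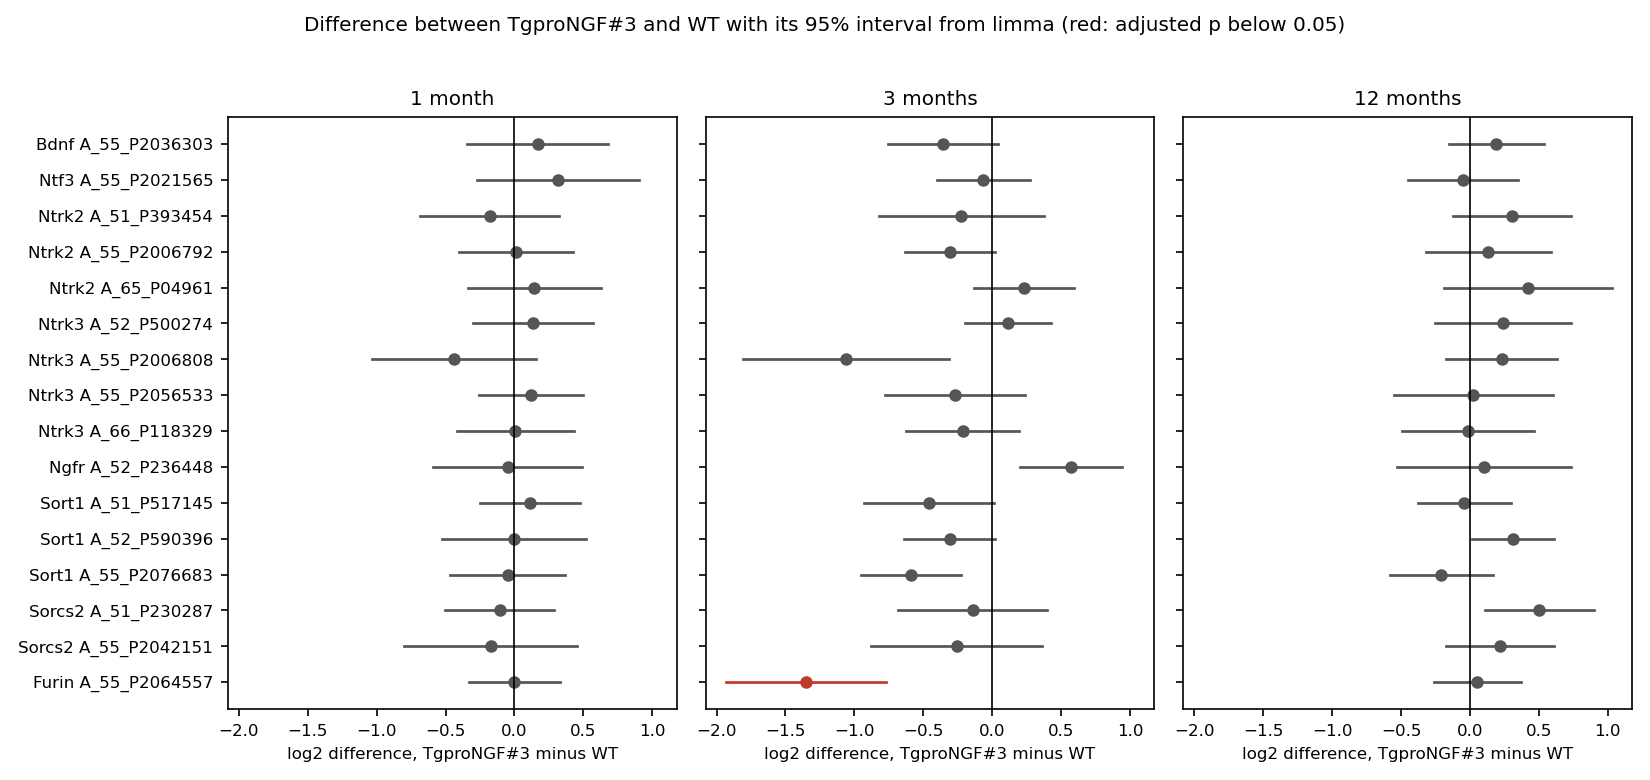
The log2 difference between TgproNGF#3 and WT mice (horizontal axis) is drawn for each of the 16 member probes (rows) at 1, 3 and 12 months, with its 95% interval from limma as a line. Furin at 3 months, at -1.35, is the point with an adjusted p below 0.05, and the intervals of Ngfr, Sort1 A_55_P2076683 and Ntrk3 A_55_P2006808 at 3 months and of Sort1 A_52_P590396 and Sorcs2 A_51_P230287 at 12 months also leave out 0.

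Bdnf, the neurotrophin that hippocampal neurons release on activity, was measured by 1 probe. At 3 months its log2 levels were -0.75, -0.63, -0.89 and -1.28 in TgproNGF#3 and -0.27, -0.68, -0.69 and -0.49 in WT mice. The transgenic mice lay lower on average, and the 2 groups overlapped. The difference was -0.36 (SE 0.178, limma adjusted p = 0.231; two-sided exact permutation p = 0.0857, n = 4 and 4). Without transgenic replicate 4, the lowest, it was -0.22. At 1 month the difference was 0.17, from levels between -0.50 and 0.08 in TgproNGF#3 and between -0.80 and 0.12 in WT mice. At 12 months it was 0.19, from levels of -0.18, -0.21 and -0.37 against -0.36, -0.64 and -0.33, and 0.08 within the array row that held both genotypes. The 95% interval of the Bdnf difference at 3 months reached from -0.76 to 0.04, so these arrays leave room for a fall in TgproNGF#3 as well as for no change.

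Ntf3 encodes NT-3, the main ligand of TrkC, which in the adult hippocampus is known from granule cells of the dentate gyrus. Its difference was 0.32 at 1 month (SE 0.263, limma adjusted p = 1.00), -0.06 at 3 months (SE 0.150, adjusted p = 0.817) and -0.05 at 12 months (SE 0.171, adjusted p = 0.927). At 1 month Ntf3 levels spread widely in both genotypes, from -0.49 to 0.33 in TgproNGF#3 and from -0.82 to 0.12 in WT mice. At 3 months the WT levels were -1.09, -1.04, -1.04 and -0.93, and the TgproNGF#3 levels of -0.82, -1.32, -1.26 and -0.97 lay on both sides of them.

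Ntrk2 encodes TrkB, as a full-length kinase and as truncated forms without the kinase domain, the latter abundant in astrocytes. Probe A_51_P393454 is assigned to the full-length transcript NM_001025074 and probe A_65_P04961 to the truncated transcript NM_008745, while A_55_P2006792 is given the first of these in the older annotation and the second in the newer one, and so stands for no single form. At 3 months the full-length probe differed by -0.23 (SE 0.267, limma adjusted p = 0.619), A_55_P2006792 by -0.30 (SE 0.146, adjusted p = 0.213) and the truncated-form probe by 0.23 (SE 0.161, adjusted p = 0.391). The 3 probes therefore did not share a direction at this age, and for none was the difference past the threshold.

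The full-length Ntrk2 probe is printed 10 times on each array, with a median SD between its spots of 0.0413, far below the spread between mice. At 3 months its levels were 0.55, 1.01, 1.31 and 0.03 in TgproNGF#3 and 1.18, 0.96, 0.62 and 1.04 in WT mice. Replicate 4 of the transgenic group was the lowest, and without it the difference was 0.01. At 12 months all 3 Ntrk2 probes were higher in TgproNGF#3, by 0.30, 0.13 and 0.42, with adjusted p between 0.595 and 0.803 by limma. Within the array row that held both genotypes these differences were 0.01, 0.03 and 0.11. At 1 month they differed by -0.18, 0.01 and 0.15.

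Ntrk3 encodes TrkC, the receptor of NT-3, also with full-length and truncated forms. Both probes of the full-length transcript NM_008746 were slightly lower in TgproNGF#3 at 3 months, A_55_P2056533 by -0.27 (SE 0.225) and A_66_P118329 by -0.22 (SE 0.181), with limma adjusted p of 0.472 and 0.475. Without transgenic replicate 4, the lowest for both, they differed by -0.08 and -0.10. The 2 probes of the truncated transcript NM_182809 disagreed. Probe A_52_P500274 differed by 0.11 (SE 0.139, adjusted p = 0.639), and probe A_55_P2006808 by -1.06 (SE 0.332, unadjusted p = 0.0103, adjusted p = 0.0788 by limma; two-sided exact permutation p = 0.0857, n = 4 and 4).

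At 3 months the Ntrk3 probe A_55_P2006808 read -0.94, -0.62, 0.08 and -1.46 in TgproNGF#3 and 0.88, -0.09, 0.01 and 0.49 in WT mice. Replicate 3 of the transgenic group lay among the WT mice and the other 3 lay below all of them. Without that replicate the difference was -1.33 and passed the threshold (limma adjusted p = 0.0254), as it did with all mice when the ages shared 1 fit (-1.06, adjusted p = 0.0150). Without transgenic replicate 4, the lowest, it was -0.82 (adjusted p = 0.121). Since the other probe of the same transcript did not follow it, the 2 probes give no common value for truncated TrkC.

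At 1 month 3 of the 4 Ntrk3 probes differed by 0.01 to 0.14 and A_55_P2006808 by -0.44 (SE 0.268, limma adjusted p = 1.00). At 12 months the 4 differences lay between -0.01 and 0.24, and within the shared array row between -0.16 and -0.01. None of the 4 probes was called at either age.

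**Figure D2:**
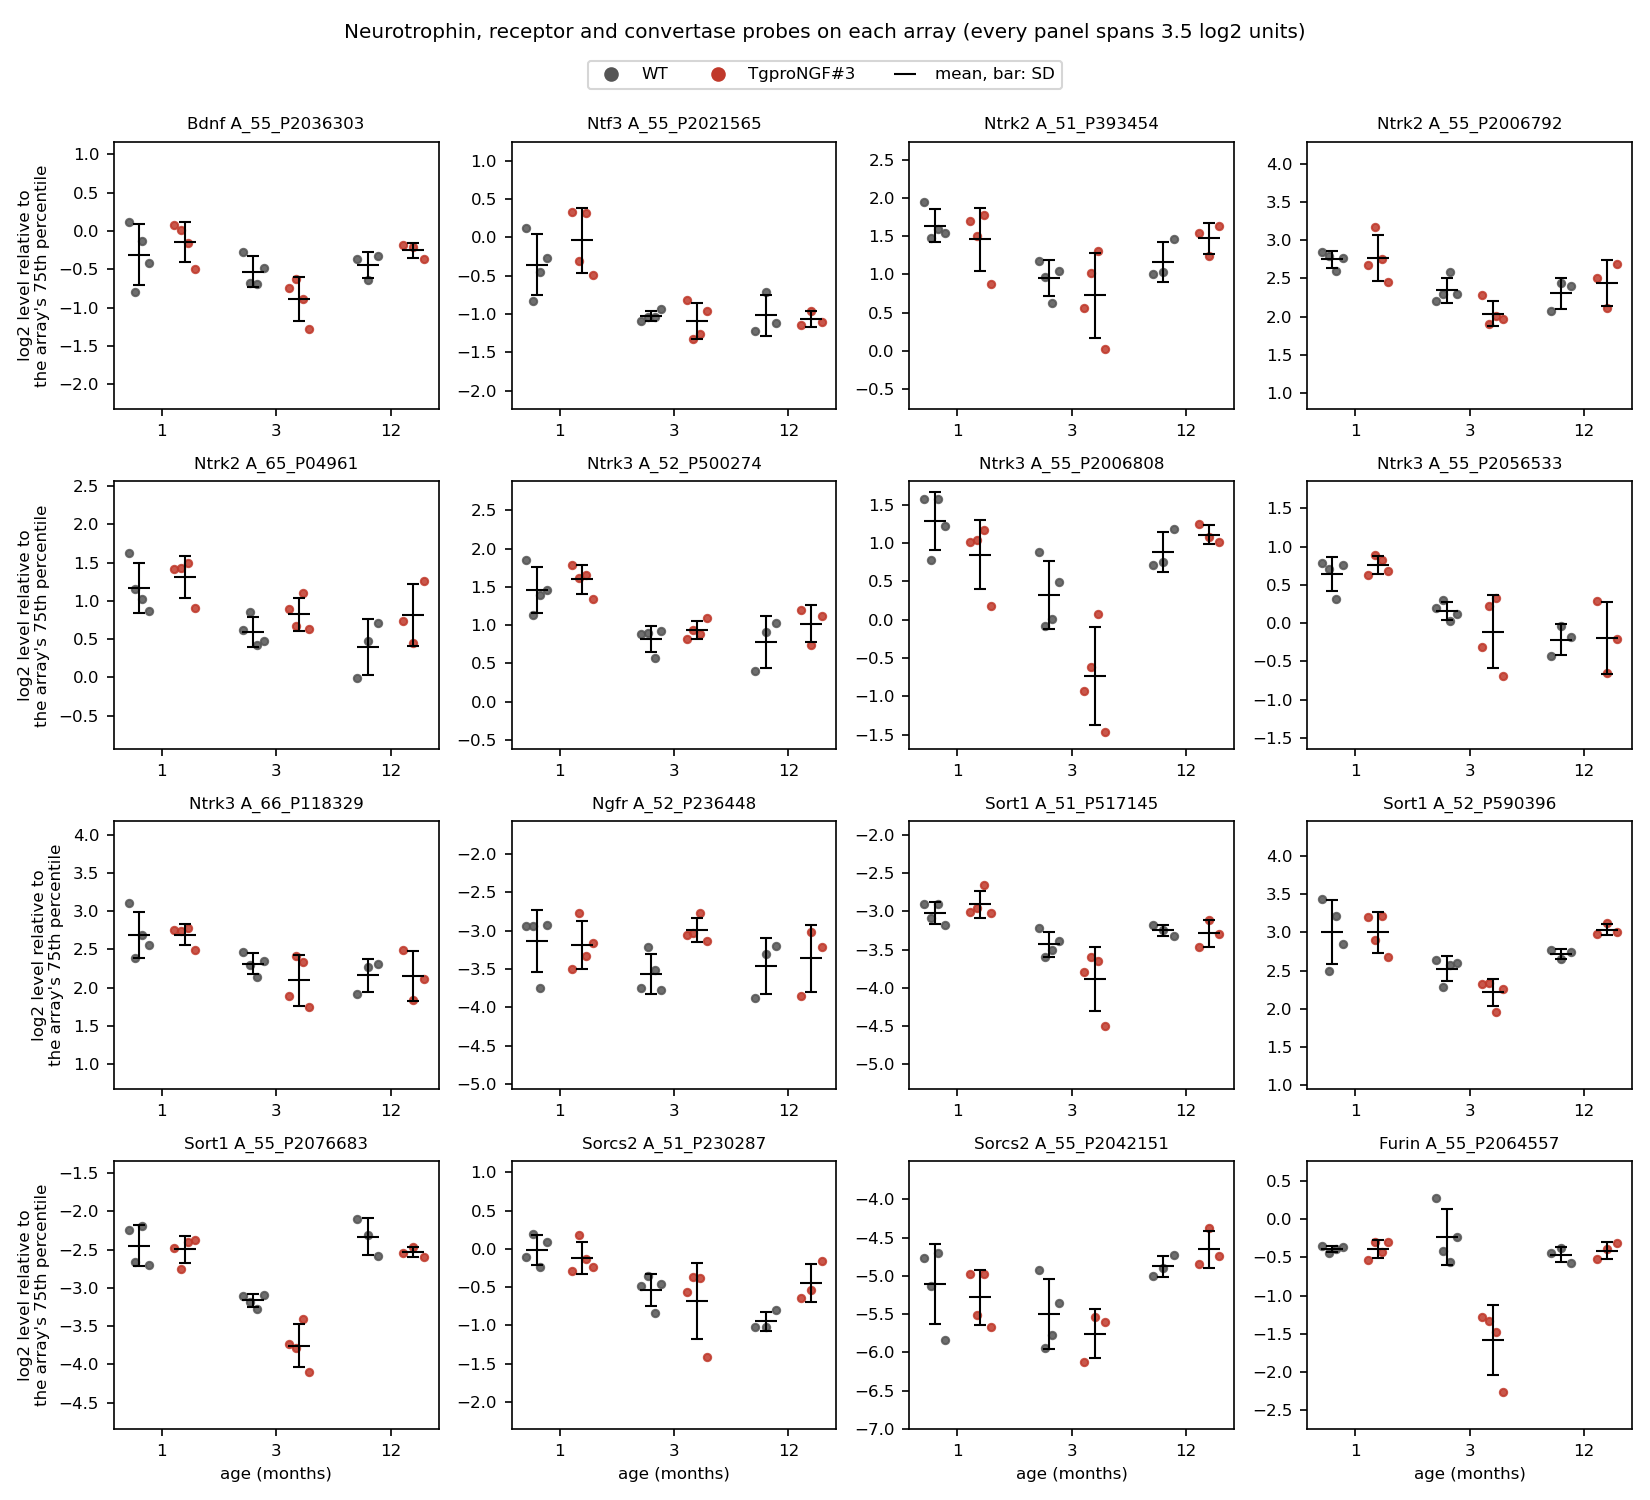
Each point is 1 mouse, drawn by age (horizontal axis, months) and genotype, with the log2 level relative to the 75th percentile of its array on the vertical axis, and the bars give mean and SD of 3 or 4 mice. For Furin at 3 months the 4 TgproNGF#3 mice lie between -2.26 and -1.28, below the 4 WT mice between -0.56 and 0.27, while at 1 and 12 months the genotypes lie on top of each other.

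Ngfr encodes p75NTR, the receptor to which proneurotrophins bind with high affinity when a sortilin is present. Its probe is dim, with intensities of 93.4 to 514 over the 22 arrays, and is printed 10 times on each, with a median SD between spots of 0.0899. At 3 months the levels were -3.05, -3.02, -2.77 and -3.13 in TgproNGF#3 and -3.74, -3.22, -3.51 and -3.78 in WT mice. All 4 transgenic mice lay above all 4 WT mice. The difference was 0.57, or 1.48-fold (SE 0.165, limma adjusted p = 0.0632), with a two-sided exact permutation p of 0.0286, the smallest that 4 against 4 mice can give. Ngfr therefore did not pass the threshold, and among the members it was the probe with the largest positive difference at 3 months.

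The Ngfr difference at 3 months stayed between 0.39 and 0.70 in 12 alternative settings and passed the threshold in 2 of them, with the percentile over all spots (0.70, limma adjusted p = 0.0280) and with the log2 values of the authors (0.66, adjusted p = 0.0357). It also passed without WT replicate 2 (0.68, adjusted p = 0.0448). Within the 2 array rows of the slide the difference was 0.44 and 0.70. At 1 month Ngfr differed by -0.05 and at 12 months by 0.10, with levels of -3.85, -3.01 and -3.21 against -3.88, -3.30 and -3.20 at the latter age. Within the array row that held both genotypes at 12 months, with 1 WT mouse, the Ngfr difference was -0.16.

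Sort1 encodes sortilin, which forms the death-signalling receptor complex with p75NTR and also sorts proBDNF towards regulated secretion. All 3 Sort1 probes were lower in TgproNGF#3 at 3 months, and 0 of 3 passed the threshold. The bright probe A_52_P590396 read 2.32, 2.34, 1.96 and 2.26 in TgproNGF#3 and 2.64, 2.29, 2.58 and 2.61 in WT mice. WT replicate 2 lay among the transgenic mice and the other WT mice above them, and the difference was -0.31 (SE 0.147, limma adjusted p = 0.213).

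The Sort1 probe A_55_P2076683, assigned to transcript NM_001271599 in the newer annotation, showed a larger difference. It is dim, with intensities of 159 to 825 over the 22 arrays, where the bright probe reached 42613. It read -3.73, -3.79, -3.40 and -4.09 in TgproNGF#3 and -3.10, -3.19, -3.27 and -3.10 in WT mice. All transgenic mice lay below all WT mice, by -0.59 on average (1.50-fold lower, SE 0.163, limma adjusted p = 0.0550; two-sided exact permutation p = 0.0286, n = 4 and 4). It passed the threshold without transgenic replicate 3 (-0.71, adjusted p = 0.0237), with the log2 values of the authors (-0.51, adjusted p = 0.0434) and when all ages shared 1 fit (-0.59, adjusted p = 0.0155). The other dim probe, A_51_P517145, differed by -0.46 (SE 0.210, limma adjusted p = 0.197), with transgenic replicate 4 lowest at -4.49. Without that replicate the difference was -0.25.

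At 12 months the Sort1 probes no longer shared a direction. Probe A_52_P590396 read 2.99, 3.12 and 3.00 in TgproNGF#3 and 2.77, 2.65 and 2.74 in WT mice. The groups did not overlap, and the difference was 0.32 (SE 0.127, limma unadjusted p = 0.0403, adjusted p = 0.549; two-sided exact permutation p = 0.1, the smallest that 3 against 3 mice can give). The other Sort1 probes differed by -0.04 and -0.21 at this age, and by 0.03 and 0.05 within the array row that held both genotypes. At 1 month the 3 differences lay between -0.05 and 0.11.

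Sorcs2 encodes a sortilin family receptor that pairs with p75NTR and TrkB in hippocampal neurons. At 12 months its brighter probe A_51_P230287 read -0.64, -0.54 and -0.16 in TgproNGF#3 and -1.02, -1.02 and -0.80 in WT mice. All transgenic mice lay above all WT mice, and the difference was 0.50, or 1.42-fold (SE 0.169, limma unadjusted p = 0.0194, adjusted p = 0.549; two-sided exact permutation p = 0.1, n = 3 and 3). Within the array row that held both genotypes, with 1 WT mouse, the difference was 0.36 for Sorcs2 and 0.30 for the Sort1 probe A_52_P590396.

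At 3 months the same Sorcs2 probe differed by -0.14 (SE 0.241, limma adjusted p = 0.737), with levels of -0.56, -0.37, -0.38 and -1.41 in TgproNGF#3. Transgenic replicate 4 alone lay below the WT mice, and without it the difference turned to 0.10. The second Sorcs2 probe was the dimmest of the members, with intensities of 27.6 to 144, and was left out on transgenic replicate 4 of 3 months as not well above it. Its differences were -0.17, -0.26 and 0.22 at 1, 3 and 12 months, with adjusted p of 1.00, 0.576 and 0.651 by limma.

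Furin, the convertase whose cleavage site is mutated in the transgene, had 1 probe, of intensities between 662 and 3070. At 3 months its levels were -1.28, -1.33, -1.47 and -2.26 in TgproNGF#3 and 0.27, -0.41, -0.56 and -0.24 in WT mice. All 4 transgenic mice lay below all 4 WT mice. The difference was -1.35 (SE 0.258, 95% interval -1.93 to -0.77, limma adjusted p = 0.0150; two-sided exact permutation p = 0.0286, n = 4 and 4). By its unadjusted p Furin stood at place 1040 of the 33593 probes tested at 3 months.

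At 1 month Furin levels were -0.54, -0.29, -0.43 and -0.30 in TgproNGF#3 and -0.35, -0.45, -0.39 and -0.36 in WT mice. The genotypes overlapped, and the 95% interval of the difference reached from -0.33 to 0.33. At 12 months the levels were -0.53, -0.39 and -0.31 against -0.45, -0.38 and -0.57, with a difference of 0.05 (95% interval -0.26 to 0.37). At these ages the 14 levels of both genotypes fell between -0.57 and -0.29.

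Transgenic replicate 4, the array with the lowest share of spots above background at 3 months, was also the lowest for Furin. Without it the Furin difference was -1.13 (limma adjusted p = 0.0138). Leaving out 1 other mouse gave between -1.46 and -1.18, with adjusted p below 0.05 in each case except without WT replicate 4, where the difference was -1.35 and the adjusted p 0.0521. In the 12 alternative settings the difference lay between -1.39 and -1.22 and passed the threshold each time, and within the 2 array rows it was -1.23 and -1.47.

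**Figure D3:**
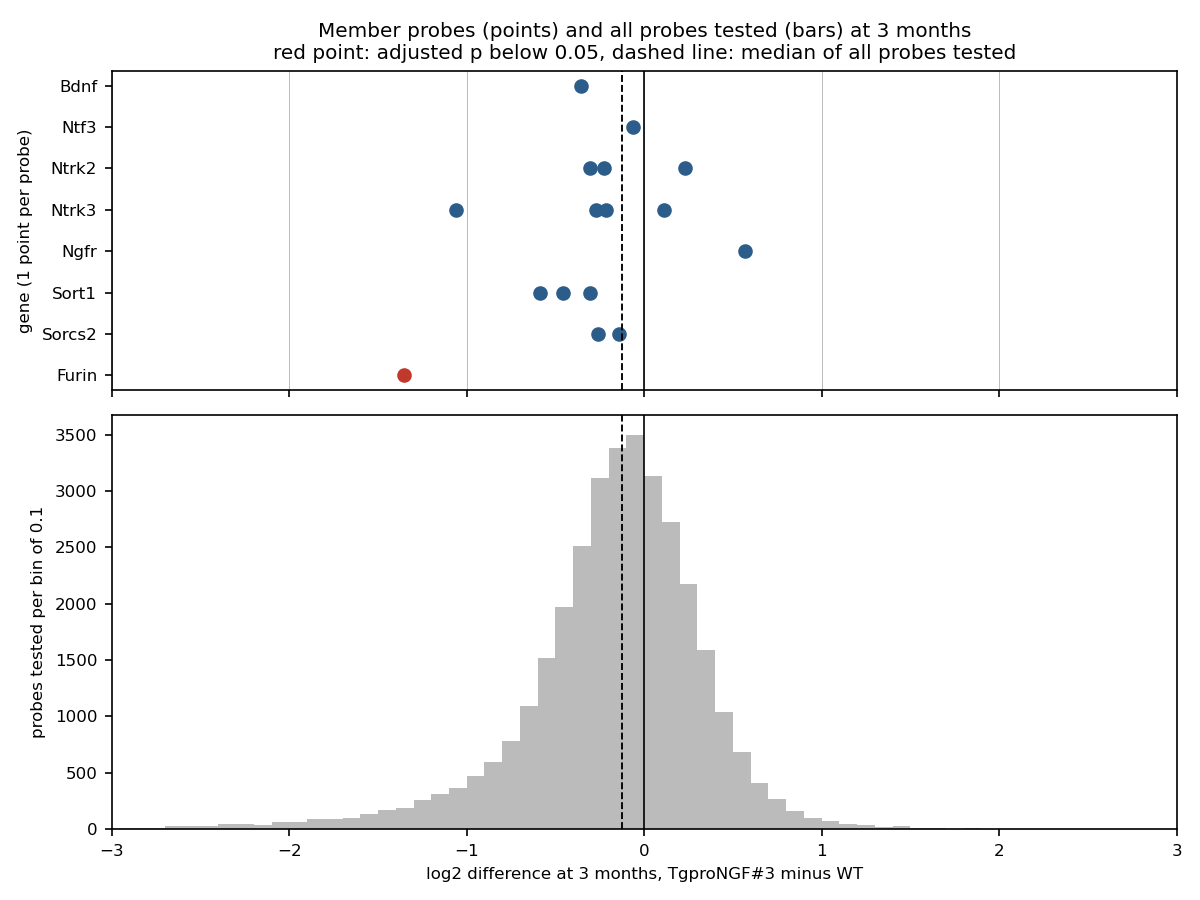
The upper panel places each member probe by its log2 difference at 3 months (horizontal axis), 1 row per gene, above the distribution of the 33593 probes tested (lower panel, probes per bin of 0.1, with 63 probes outside the axis). Furin lies in the lower tail at -1.35, Ngfr in the upper part at 0.57, and most other member probes lie a little below the median of all probes at -0.12.

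Whether the genotype difference itself changed between ages was tested in 1 limma fit of all 22 arrays. Furin was the 1 member probe called both from 1 to 3 months, where the difference changed by -1.35 (SE 0.267, limma adjusted p = 0.00500), and from 3 to 12 months, where it changed by 1.40 (SE 0.288, adjusted p = 0.00610). These tests called 2.87% and 4.52% of the 32420 probes tested. The next of the members from 3 to 12 months was Ntrk3 A_55_P2006808, with a change of 1.29 (adjusted p = 0.0999), which passed the threshold without transgenic replicate 3 of 3 months (1.56, adjusted p = 0.0227). For Ngfr the change was 0.62 from 1 to 3 months (adjusted p = 0.373) and -0.47 from 3 to 12 months (adjusted p = 0.506). For Bdnf the changes were -0.52 and 0.55, with adjusted p of 0.372 and 0.324. The change of the Sort1 probe A_55_P2076683 from 1 to 3 months was -0.54 (adjusted p = 0.248), so for Ngfr and Sort1 the genotype difference at 3 months is not shown to differ from that at the other ages.

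In WT mice most member probes read lower at 3 months than at 1 month, but so did most of the array. The share of spots well above background was 69.8% to 80.3% in WT mice of 1 month and 62.9% to 64.1% in those of 3 months. By limma 10 of 16 member probes differed between these ages, all of them lower at 3 months, where 44.7% of the 33683 probes tested differed. The median difference was -0.48 for members and -0.45 for all probes, and 7 member probes lay above and 9 below the median of all probes. With the percentile over all spots the median of all probes moved to 0.01, 13% of all probes were called and 1 of 16 members was, Furin, now 0.61 higher at 3 months (adjusted p = 0.0332) against 0.16 in the scaling used otherwise. The measured age differences are therefore read beside the median of all probes.

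The measured differences furthest below the all-probe median of -0.45 from 1 to 3 months were those of Ntrk3 A_55_P2006808 at -0.96, Sort1 A_55_P2076683 at -0.72, Ntrk2 A_51_P393454 at -0.69 and Ntf3 at -0.67. For Ntf3 the WT mean was -0.35 ± 0.39 (SD, n = 4) at 1 month and -1.03 ± 0.07 (SD, n = 4) at 3 months. Furin (0.16) and Bdnf (-0.22) lay furthest above it. With the percentile over all spots these 4 probes read -0.51, -0.26, -0.23 and -0.22, none of them past the threshold, and 7 of 16 probes were higher at 3 months in place of 1. Among these were 3 probes that had been lower at an unadjusted limma p under 0.05, Ntrk2 A_55_P2006792, Ntrk3 A_66_P118329 and Sort1 A_51_P517145, which now read 0.05, 0.08 and 0.05.

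From 3 to 12 months 1 of 16 member probes differed in WT mice, where 9.61% of all probes tested did. It was the dim Sort1 probe A_55_P2076683. Its level was higher by 0.84 where the median of all probes was 0.08 (SE 0.178, limma adjusted p = 0.0127), from -3.10, -3.19, -3.27 and -3.10 to -2.09, -2.31 and -2.58. The groups did not overlap, and the difference was 0.80 (adjusted p = 0.0127) with the percentile over all spots. It missed the threshold with median scaling, with quantile normalization and without WT replicate 1 of 12 months. The other members differed by -0.41 (Sorcs2 A_51_P230287) to 0.62 (Sorcs2 A_55_P2042151). From 1 to 12 months 6 of 16 differed, all lower, against 28.7% of all probes, and 0 of 16 with the percentile over all spots. Bdnf, Ngfr and Furin were called in none of the 3 WT comparisons in the scaling used here.

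**Figure D4:**
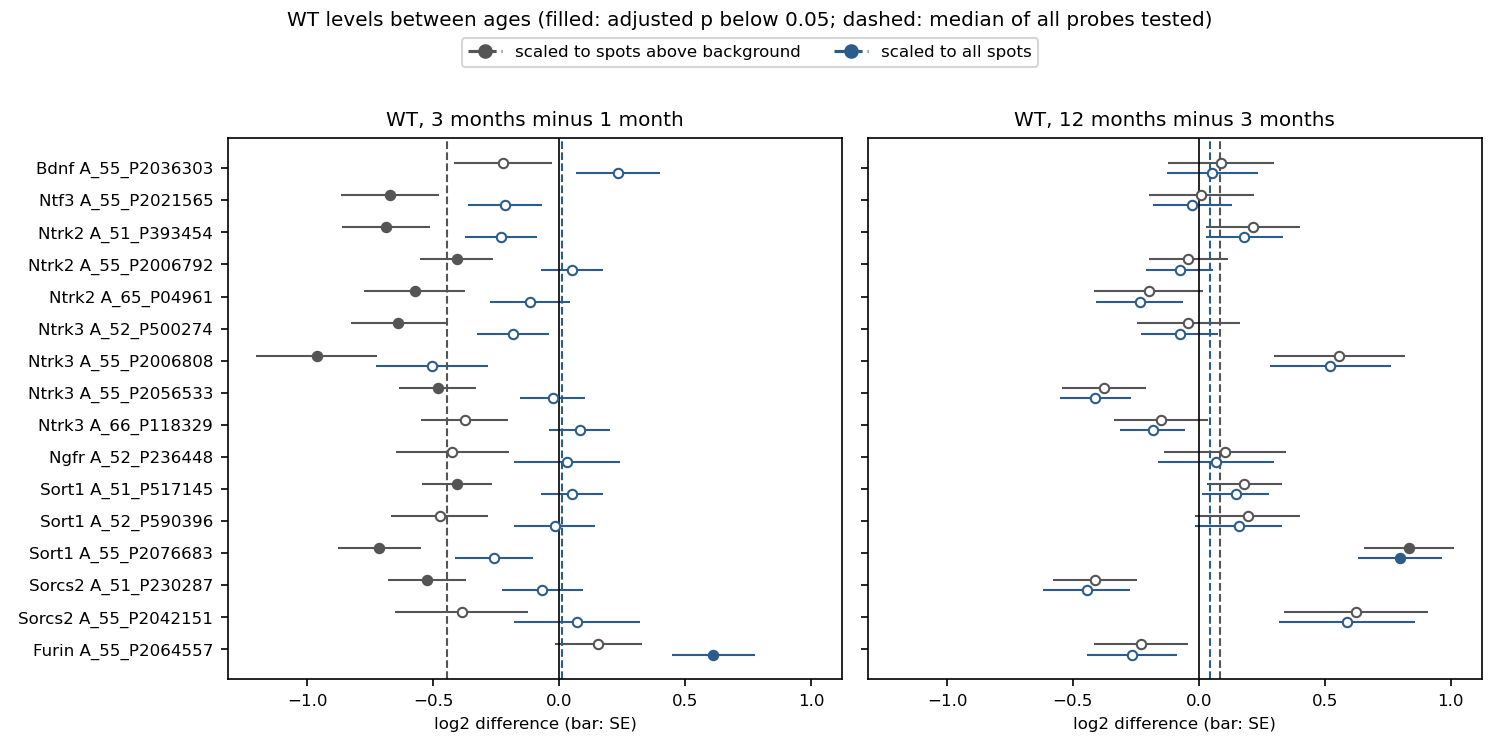
Log2 differences between ages in WT mice (horizontal axis, bars are SE) are drawn for the 16 member probes under 2 scalings, grey for the percentile of spots above background and blue for that of all spots, with dashed lines at the medians of all probes and filled points at an adjusted p below 0.05. From 1 to 3 months the grey median lies at -0.45 and the blue one at 0.01 and the member probes move with it, while from 3 to 12 months both scalings put Sort1 A_55_P2076683 highest, at 0.84 and 0.80.

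Of 52 further genes of the pathway, 49 were tested at 1 month and 47 at 3 and at 12 months, each by its brightest probe. At 3 months 2 were higher and 4 lower in TgproNGF#3 at a limma adjusted p below 0.05, where 2.05% and 4.48% of the 15724 genes tested were, and the median difference was 0.02 against -0.05 for all genes. At 1 and 12 months 0 were called. By limma 1, 13 and 4 had an unadjusted p below 0.05 at 1, 3 and 12 months, where 3.47%, 27.2% and 9.05% of all probes had. These shares count probes, not genes. Among 7 other genes listed with the proprotein convertases, Pcsk4 was higher at 3 months, at -2.23 ± 0.26 against -2.88 ± 0.12 (SD, n = 4 and 4; adjusted p = 0.0391 by limma), and 0 were called lower. Of 3 other sortilin family receptors Sorcs3 was higher, at -1.44 ± 0.10 against -1.97 ± 0.17 (adjusted p = 0.0443), where the 3 Sort1 probes were lower at that age.

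Among 17 Trk adaptors and effectors 2 were called lower at 3 months and 0 higher. Plcg1, the phospholipase C that activated Trk receptors recruit, read -5.63 ± 0.56 in TgproNGF#3 and -4.01 ± 0.55 in WT mice (limma adjusted p = 0.0201), and the adaptor Frs3 read -4.88 ± 0.33 and -3.79 ± 0.50 (adjusted p = 0.0359; SD, n = 4 and 4). These levels are low, with Plcg1 in TgproNGF#3 near the dimmest member probe, Sorcs2 A_55_P2042151 (-5.76 and -5.50 at 3 months). This limits how well the Plcg1 and Frs3 differences are measured. Of the 9 p75NTR partners tested, Adam17, a protease that sheds the p75NTR ectodomain, was lower by -0.77 (limma adjusted p = 0.0269). Plcg1 was called in 8 of 8 fits without 1 mouse, Adam17 and Frs3 in 3, Pcsk4 in 2 and Sorcs3 in 1, and these 5 genes kept their direction in all 8. The count of 6 became 1 without WT replicate 1 or 4, 2 without transgenic replicate 1 or WT replicate 2 or 3, 3 without transgenic replicate 2, and 9 without transgenic replicate 4. In 12 alternative settings Plcg1 was called in all 12, Pcsk4 and Adam17 in 8, Frs3 in 7 and Sorcs3 in 6.

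The pathway genes with the smallest unadjusted p at 1 month were Plau, Gab1 and Lingo1, with differences of -1.12, 0.38 and -0.51. Plau, the urokinase, was well above background in 3 transgenic and 2 WT mice of that age. At 12 months they were Serpini1, which encodes the protease inhibitor neuroserpin, at 0.72, Cadps2, a factor of dense-core vesicle release, at 0.54, and Lingo1, a co-receptor of p75NTR, at 0.39. The limma adjusted p was 1.00 for the first 3 and 0.549 for the others.

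Markers of other cells were measured beside the members. All 7 markers of hippocampal excitatory neurons were well above background on all 22 arrays, and the lists for thalamus, striatum and basal forebrain cholinergic neurons had mean levels below -0.79 in every mouse. At 3 months 3 of 56 markers were called, the CA1 marker Fibcd1 (-0.93), the CA3 marker Grik4 (-0.64) and the thalamic marker Tcf7l2 (-0.70), where 8.43% of all probes were called. Other markers of these lists were higher, such as Nrgn (0.48) and Tnnt1 (0.26), and did not pass the threshold. The mean level of the excitatory list at that age was 0.588 to 0.969 in TgproNGF#3 and 0.920 to 1.04 in WT mice, and that of the 6 leptomeningeal markers 0.754 to 1.37 and 0.390 to 0.885. At 12 months the leptomeningeal list read -0.380 to 0.201 in TgproNGF#3 and 0.741 to 1.07 in WT mice, without overlap, though 1 of its 6 markers, Dcn, was higher (0.13) and 0 were called at either age. All 5 interneuron markers were higher in TgproNGF#3 at 12 months, by 0.34 (Pvalb) to 0.82 (Sst), and 0 of them passed the threshold. Their mean level was 2.66 to 3.06 against 1.97 to 2.71 at that age, and 2.22 to 2.71 against 1.85 to 2.29 at 3 months. At 3 months Sst (0.79), Gad1 (0.63) and Gad2 (0.39) were higher, while Pvalb (-0.04) and Slc32a1 (-0.04) were not. The astrocyte list read 0.855 to 1.25 against 1.201 to 1.295 at 3 months and 1.22 to 1.35 against 1.33 to 1.44 at 12 months. Slc1a3 (0.03) alone was higher at 3 months. At 12 months Gfap (0.11) and Gja1 (0.12) were higher and the others lower, Aqp4 most (-0.57). The choroid plexus list swung between mice, from -1.42 to 2.99 in TgproNGF#3 and from 1.88 to 2.70 in WT mice at 3 months and from -0.87 to 2.64 and from -0.74 to 3.099 at 12 months, with all 5 markers lower in TgproNGF#3 on average at both ages and 0 called. The part of these differences in marker RNA in the values of Furin, Ngfr, Sort1 and Sorcs2 was not tested.

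Over the 22 arrays, with the mean of each age subtracted, the gene most like Furin was Setd1b (Pearson r = 0.950), followed by Nub1 (0.936), among 14507 genes measured on all arrays. For Sort1 A_52_P590396 they were Cct5 (0.953) and Rapgef2 (0.945), for Bdnf Zcchc10 (0.908) and Klhl2 (0.901), and for Ngfr 1810020O05Rik (0.751) and Bag2 (0.742). Ntf3 was closest to Coro7 (0.858) and Limd2 (0.840), Ntrk2 A_55_P2006792 to Atpsckmt (0.906) and Dhrs3 (0.853), and Sorcs2 A_51_P230287 to Kti12 (0.880) and Dnajb9 (0.866). For Ntrk3 A_66_P118329, Cacna1a was among the closest (0.878). The arrays share their scaling and the genotype difference, so these are descriptions of likeness over these mice.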

How the data were processed

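Total RNA of the right hippocampus of 22 mice was labelled with Cy3 and hybridized to Agilent 8x60K mouse arrays by the authors, who read the scans with Feature Extraction (version 10.7.3.1 in the submitters' processing notes). The deposited spot intensity is corrected for background and spatial trends and not scaled between arrays. The deposited log2 values of the authors are the same signal aligned at the 75th percentile, for probes above background on all arrays, and served as an alternative. Columns of the authors' own comparisons in their supplementary table were not used.

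Here control and outlier spots and those not well above background were dropped, the 75th percentile of the log2 intensities left was subtracted per array, and spots of a probe were averaged. Probes were named through RefSeq transcripts in the newer annotation carried by the 1- and 12-month files, which gave 28026 probes a symbol with the reference tables. The 3-month files carry an older version. Within each age, every probe with 2 or more values per group entered a two-sided limma test (version 3.58.1, R 4.3.3, lmFit followed by eBayes) of the labelled genotypes. Adjusted p-values are Benjamini-Hochberg values over all probes tested. Mice are taken as separate samples, as labelled. Single probes measured on all arrays were also compared by two-sided exact permutation tests. The fits were tested on simulated data with 200 probes changed by a log2 value of 2. The noise was drawn separately for each probe and array, so deviations shared over an array were not part of this test. The number of arrays limits the precision.

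Every member probe is named. Of the pathway genes, those with adjusted p below 0.05 are named or, where there were none, the 3 with the smallest p, except that 1 gene called at 3 months and 1 of the genes most like a member are counted but not reported here. Members and lists were chosen with earlier results of these data known. Same-numbered mice of 1 month deviated together from their group means (correlations 0.191 to 0.511 over 4 pairs, arrays in the same row), those of 3 months (-0.356 to -0.0234) and 12 months (-0.316 to 0.0503) did not. Alternatives changed the filters, the scaling, the background correction (normexp with an offset of 50 on median signals, which the files hold in place of mean signals), the source of the values, the samples in the fit and the blocks, and left out each mouse in turn. Tables were read with the data.table package (version 1.17.8).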

Additional observations from a re-analysis of the deposited data

Results flagged for a closer look

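The genotype difference of Furin was tested to differ between ages. It changed by -1.35 from 1 to 3 months and by 1.40 from 3 to 12 months, in limma fits of all 22 arrays with adjusted p of 0.00500 and 0.00610, and at 3 months 4 of 4 TgproNGF#3 mice lay below all WT mice.

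By Dixon's ratio 1 mouse stood apart from the other 3 of its group in 7 of 63 sets of a probe and a group. Chance gives about 1 in 20 for a single set, and the sets share the same 16 mice, with 3 of the 7 from TgproNGF#3 replicate 4 of 1 month, so 7 cannot be set against that rate. At 1 month TgproNGF#3 replicate 4 was low for Ntrk2 A_65_P04961 (0.90), Ntrk3 A_55_P2006808 (0.18) and Ntrk3 A_66_P118329 (2.49). In the same group replicate 3 was high for Sort1 A_51_P517145 (-2.65). WT replicate 3 of 1 month was low for Ngfr (-3.75) and for Ntrk3 A_55_P2056533 (0.32), and WT replicate 3 of 3 months was low for Ntrk3 A_52_P500274 (0.57). None of these probes was called at the age concerned.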

How the results depend on the processing

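Furin at 3 months kept its direction in 12 alternative settings and 8 fits without 1 mouse and its side of the threshold in all but 1, without WT replicate 4. The 1 member called at 3 months became 2 with the percentile over all spots and 3 with the log2 values of the authors (15 member probes) or 1 fit of all 22 arrays, where the share of all probes called went from 8.43% to 11.5%, 12.1% and 15.7%, and 0 to 3 without 1 mouse (0 without WT replicate 4, 2 without WT replicate 2, 3 without transgenic replicate 3). By the thresholds of the study 2 became 1 with dim spots kept, the percentile over all spots, normexp or the log2 values of the authors, and 1 to 2 without 1 mouse (1 without transgenic replicate 1 or 4 or WT replicate 1, in each case Furin). The 6 pathway genes of 3 months became 3 with dim spots kept, 10 with the percentile over all spots, 2 with median scaling or normexp, 1 with quantile normalization, and 1 to 9 without 1 mouse. The 10 WT members that differed from 1 to 3 months became 1 with dim spots kept, the percentile over all spots or the log2 values of the authors, 13 with median scaling and 11 with quantile normalization (6 to 11 without 1 mouse, 6 without WT replicate 1 of 1 month or WT replicate 4 of 3 months). The share of all probes went from 44.7% to 20.1%, 13% and 15% in the first 3 of these settings. It was 59.6% with median scaling and 56.7% with quantile normalization. The 6 from 1 to 12 months became 0 in those 3 settings and 10 with median scaling (2 to 6 without 1 mouse, 2 without WT replicate 1 of 1 or 12 months and 3 without WT replicate 4 of 1 month). Here the share of all probes went from 28.7% to 20.3%, 8.7% and 8.8%, and to 57.7% with median scaling. The 1 from 3 to 12 months became 0 with median scaling or quantile normalization (0 to 1 without 1 mouse, 0 without WT replicate 1 of 12 months). The share of all probes went from 9.61% to 2.95% and 4.06% in these 2 settings. The age change of the genotype difference from 3 to 12 months called 1 to 2 members without 1 mouse (2 without transgenic replicate 3 of 3 months, Furin and Ntrk3 A_55_P2006808). The cause of these changes was not tested.

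From 1 to 3 months in WT mice 3 of the probes with an unadjusted limma p under 0.05 turned direction: Ntrk3 A_66_P118329 (0.0753 with dim spots kept, 0.0818 over all spots, 0.0337 with the log2 values of the authors), Sort1 A_51_P517145 (0.0438, 0.0503 and 0.00223) and Ntrk2 A_55_P2006792 (0.0440, 0.0504 and 0.00235). Of the others, Bdnf (0.23), Ngfr (0.03) and Sorcs2 A_55_P2042151 (0.07) turned with the percentile over all spots and Furin (-0.07) with median scaling.

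With the replicate block the member counts were unchanged at all ages (0, 1 and 0), while the share of all probes called at 3 months went from 8.43% to 2.32%. Furin read -1.35 with a limma adjusted p of 0.0463, and the pathway genes called at 3 months went from 6 to 1. At 1 month, where same-numbered mice deviated together and also lay in the same array row, the replicate block called 0 probes. The labels name no pairing of mice. Sorcs2 A_55_P2042151 was the dimmest member probe, which limits how well its differences are measured.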
